A study of Mus musculus with 12 samples.

Results

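The subject is a set of 33 genes that encode integrins and the proteins of focal adhesions, followed through the thoracic aortas of mice that breathed nicotine vapor or room air. The rule names the 33 gene symbols and uses no measured value, but the set was chosen with earlier results of these data known. All 33 were found among the 27933 genes of the count table, and all 33 were among the 14621 genes with enough counts for testing. RNA of the thoracic aorta, cleared of fat before freezing, was counted per gene in 12 libraries, 3 in each of 4 groups. The first group, KO nicotine (libraries 3, 4 and 5), held C57BL/6J mice labelled as knockouts of the alpha7 nicotinic acetylcholine receptor that were exposed to nicotine vapor. KO air (libraries 1, 2 and 7) held knockouts of the same strain in room air. WT nicotine (libraries 6, 11 and 12) and WT air (libraries 8, 9 and 10) held wild-type C57BL/6J mice with the corresponding exposures. Exposure began in every group at 5 months and ran for 12 weeks, and the stated age is 8 months. The labels do not say that each library came from a separate mouse, so every p here rests on the variation among libraries, some of which may be technical.

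Integrins are receptors made of an alpha and a beta subunit that hold a cell to the extracellular matrix. On the inner side, talin and kindlin switch the receptor to its active state, and vinculin, the ILK, PINCH and parvin complex, zyxin and VASP tie it to actin filaments. Focal adhesion kinase and its adaptors paxillin and p130Cas turn the load on these contacts into signals. In the aortic media such contacts couple the contractile filaments of smooth muscle cells to elastin and collagen, and they are known as sites where the wall senses stretch.

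Library totals ran between 10240031 and 12628323 counts, and the 33 genes together took 1.501 to 2.259% of the counts of a library. Of 15 contractile smooth muscle genes, all were measured in every group, with Myh11, the smooth muscle myosin heavy chain, between 10270 and 21760 CPM (counts scaled to a common library size, with library factors from the TMM method). The tissue label therefore had its defining muscle markers. Chrna7, which encodes the receptor the knockout label names, had 8 to 28 counts in the KO libraries and 9 to 37 counts in the WT libraries. These ranges overlapped, and because the labels do not say which stretch was deleted, the counts do not check the genotype. Library numbers 1 to 5 and 7 are KO and 6 and 8 to 12 are WT, and the labels do not explain the numbers.

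The integrin subunits differed far more between each other than between groups. Levels of different genes are compared here as CPM per kilobase of exon, averaged over the 12 libraries. Among alpha subunits, Itga8, which pairs with beta 1 and binds nephronectin and fibronectin, stood first at 457 CPM per kb. Next came Itga9, which also pairs with beta 1, at 106 CPM per kb, and Itga5, the alpha chain of the main fibronectin receptor, at 89.98 CPM per kb. Itga8 was above Itga9 in 12 of 12 libraries with no overlap of their ranges. Itga9 was above Itga5 in 9 of 12 libraries, so these neighbours could not be ordered in every library. Below them, the laminin receptor chain Itga3 had 38.8 CPM per kb, the vitronectin receptor chain Itgav had 27.7 CPM per kb, and Itga7, a laminin receptor chain of muscle, had 22.2 CPM per kb. Itgav was above Itga7 in 11 of 12 libraries. The collagen receptor chain Itga1 had 14.1 CPM per kb, and the laminin receptor chain Itga6 had 6.46 CPM per kb, lower in 12 of 12 libraries with no overlap. Itga11, a collagen receptor chain typical of fibroblasts, and Itga4, whose product binds VCAM1, closed the order at 2.79 and 1.63 CPM per kb. Among beta subunits, Itgb1, the common partner of most of these alpha chains, had 424 CPM per kb. Itgb5 and Itgb3, both partners of Itgav, had 153 and 28.1 CPM per kb, and Itgb8, another partner of Itgav, had 1.65 CPM per kb. This beta order held in 12 of 12 libraries, and no neighbouring ranges overlapped.

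**Figure D1:**
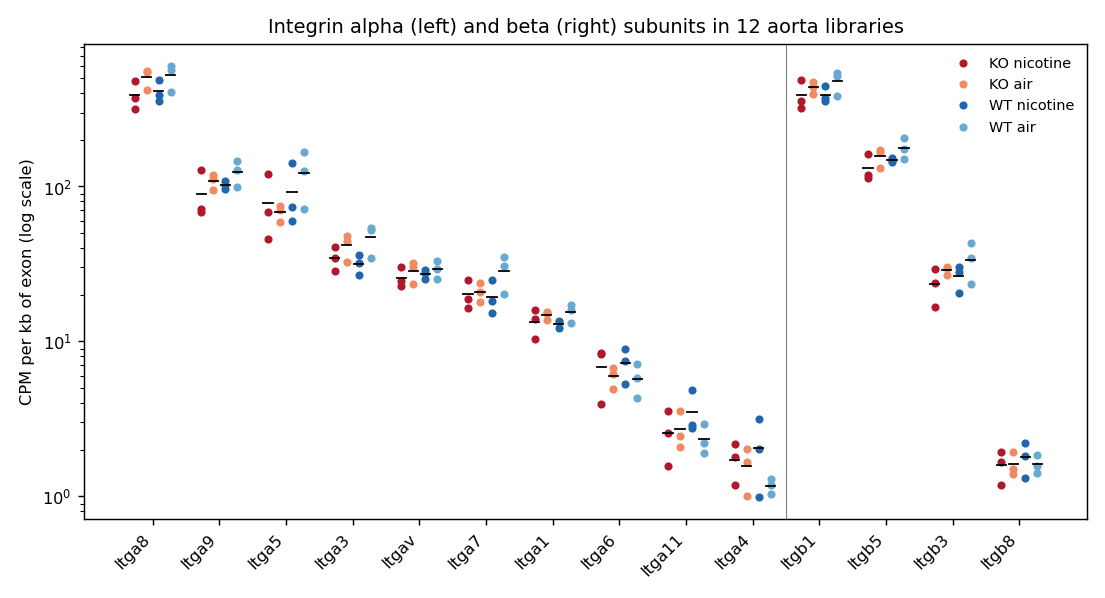
Level of each integrin subunit in CPM per kb of exon on a log axis, with a point for each of the 12 libraries and a bar for each group mean of 3 libraries, KO nicotine, KO air, WT nicotine and WT air running left to right within a gene. Itga8 (mean 457 CPM per kb) and Itgb1 (424 CPM per kb) lie at the top of their classes in every group.

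Inside the cell, Tns1, which encodes tensin 1, an actin-binding adaptor of mature adhesions, had the highest level of the linker genes at 270 CPM per kb. Tln1, encoding talin 1, had 148 CPM per kb, Vcl, encoding vinculin, had 88.9 CPM per kb, and Fermt2, encoding kindlin 2, had 77.5 CPM per kb. The paralogs Tns3 and Tln2 were at 9.69 and 3.06 CPM per kb. Among the actin regulators, Zyx (zyxin) had 106 CPM per kb, Lpp, a zyxin relative of smooth muscle, had 75.9 CPM per kb, Vasp, which promotes actin filament growth, had 51.9 CPM per kb, and Lasp1, a LIM and SH3 protein, had 14.04 CPM per kb. Of the signalling genes, Tgfb1i1, encoding the paxillin relative Hic-5, had 29.97 CPM per kb, Bcar1 (p130Cas) had 10.2 CPM per kb, Pxn (paxillin) had 7.93 CPM per kb, and Ptk2 (focal adhesion kinase) had 7.26 CPM per kb. In the ILK complex, Lims2 (PINCH2) had 44.3 CPM per kb, Parva (alpha-parvin) had 21.7 CPM per kb, Lims1 (PINCH1) had 18.6 CPM per kb, and Parvb (beta-parvin) had 6.57 CPM per kb.

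Ilk itself, the integrin-linked kinase at the centre of that complex, was listed with 2 to 13 counts per library, or 0.213 CPM per kb. In the GENCODE M21 annotation, 89.7% of its 2744 exon bases lie under exons of Taf10 and Rrp8 on the opposite strand, which had 192 to 288 and 194 to 348 counts. Whether the counting used strand is not given in the sources used here, so the Ilk counts are uncertain and say little about the level of its mRNA. Vcl shares 25.5% of its exon bases with Ap3m1 on the opposite strand, which had 377 to 626 counts.

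Among the members with a listed promoter, Vcl and Fermt2 were the only ones whose window held a CArG box, the motif bound by serum response factor in smooth muscle and actin genes. The box was read as CC, then 6 bases of A or T, then GG, a pattern that is its own reverse complement. It was searched in RefSeq promoter windows of 300 bases on GRCm38.p6, running 250 bases before to 50 after each listed start. It occurred in 2 of 30 windows of the 24 members that had an entry, or 6.67%, against 535 of 32851 windows of all genes, or 1.63%. Both windows are shown with the box in capitals. A looser search, with 1 mismatch allowed among the 6 bases of A or T, matched 6 of 30 member windows. That is 20.0%, against 9.98% of all windows. Whether serum response factor has a part in the levels of the members was not tested. The Vcl window is chr14:20929148-20929447 on the plus strand, with the box 227 bases before the start, and the Fermt2 window is chr14:45530016-45530315 on the minus strand, with the box 204 bases before the start.
Vcl: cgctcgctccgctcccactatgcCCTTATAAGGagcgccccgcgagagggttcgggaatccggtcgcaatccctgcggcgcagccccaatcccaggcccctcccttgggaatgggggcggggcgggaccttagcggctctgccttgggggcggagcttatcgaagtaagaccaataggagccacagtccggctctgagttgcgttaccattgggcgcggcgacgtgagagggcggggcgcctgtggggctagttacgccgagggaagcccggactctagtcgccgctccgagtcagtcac
Fermt2: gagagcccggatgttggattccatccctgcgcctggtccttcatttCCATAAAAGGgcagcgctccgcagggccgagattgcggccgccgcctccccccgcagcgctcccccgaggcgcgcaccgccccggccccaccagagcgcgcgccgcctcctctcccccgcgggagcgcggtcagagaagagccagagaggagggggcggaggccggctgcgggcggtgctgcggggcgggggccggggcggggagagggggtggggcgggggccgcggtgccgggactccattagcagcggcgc
A match describes the letters of the window and not a bound site. Itga6, Itga7, Itgb3, Tln2, Lims2, Parva, Ptk2, Pxn and Tgfb1i1 were not matched to a window.

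Most members followed a shared order of libraries. KO nicotine 3 had the lowest CPM in 13 members and KO nicotine 4 in 9, while WT air 9 had the highest in 14 members and WT air 10 in 7. Summed over the 33 genes, the level was 16550 ± 2810 CPM in KO nicotine, 19190 ± 2380 CPM in KO air, 17330 ± 1530 CPM in WT nicotine and 21020 ± 3240 CPM in WT air (SD, n = 3 each). The groups overlapped in this sum. KO nicotine held the lowest group mean for 16 members, and WT air held the highest for 20. Between the lowest and the highest library, the median member varied 1.85-fold. Ilk (6.99-fold), Itga5 (3.63-fold), Itga4 (3.18-fold) and Itga11 (3.11-fold) varied most, and Pxn varied least (1.42-fold).

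**Figure D2:**
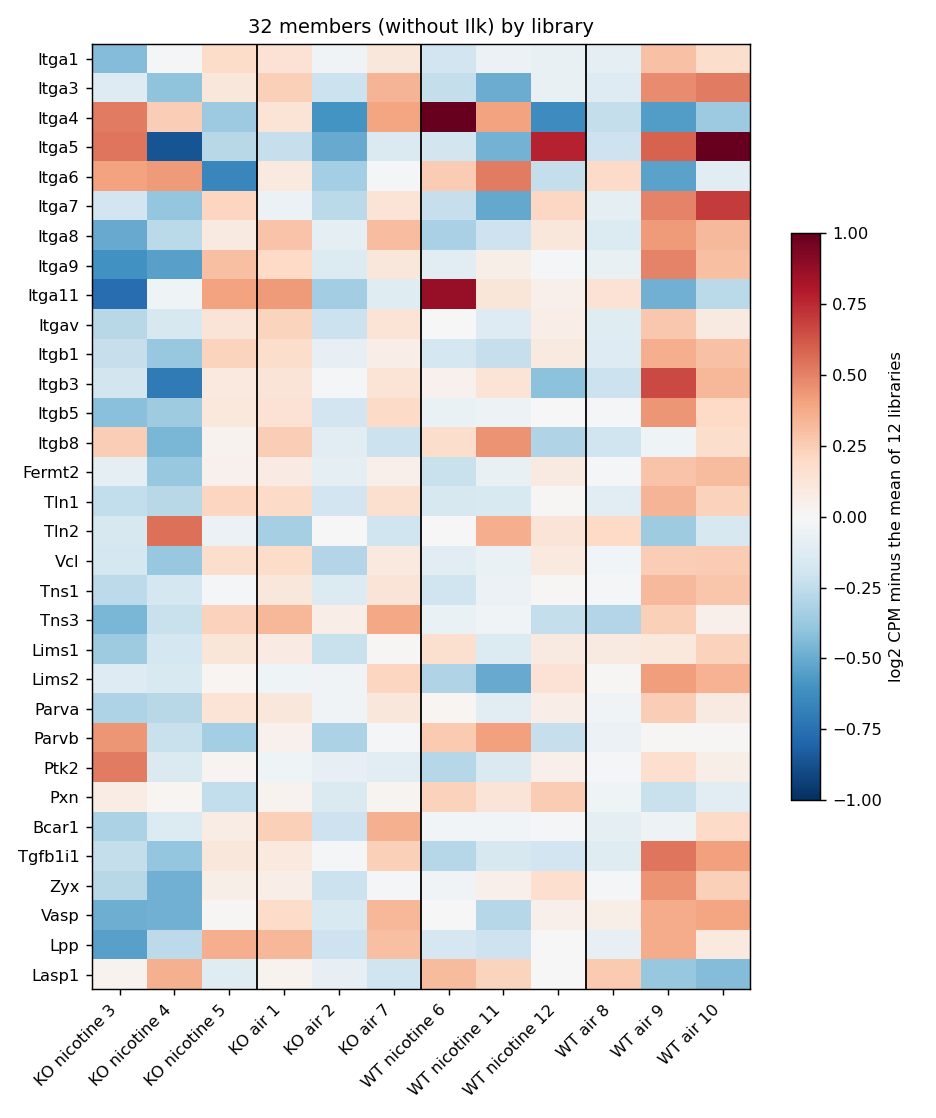
Log2 CPM of 32 members minus each gene's mean over the 12 libraries, with genes in rows by role and libraries in columns grouped as KO nicotine, KO air, WT nicotine and WT air; Ilk is left out for its low counts. KO nicotine 3 and KO nicotine 4 are below the mean in most rows, and WT air 9 and WT air 10 above it. Itga4, Itga6, Itga11, Lasp1, Tln2 and Pxn run the other way in both WT air 9 and WT air 10.

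The members' sum adds CPM, so abundant genes weigh most in it, with means of 4323 CPM for Tns1 and 3369 CPM for Itga8. Pxn, at 64.95 CPM, and Itga4, at 22.73 CPM, hardly enter it. The marker sums below are weighted in the same way. The members' sum moved together with that of the contractile genes, none of which is a member. Their summed level ran from 31165 to 50740 CPM in KO nicotine, from 43667 to 52309 CPM in KO air, from 38040 to 43820 CPM in WT nicotine and from 41859 to 62540 CPM in WT air. By both sums WT air 9 ranked 1, WT air 10 ranked 2, KO air 1 ranked 3, KO air 7 ranked 4, KO nicotine 5 ranked 5 and WT nicotine 12 ranked 6. KO nicotine 4 ranked 11 and KO nicotine 3 ranked 12 in both. The sum of 10 adipocyte genes ran near the reverse, between 2384.8 and 6189.4 CPM in KO nicotine, 2292.8 and 4109.2 CPM in KO air, 3520.7 and 4366.3 CPM in WT nicotine, and 1279.1 and 3967.9 CPM in WT air. Its lowest library was WT air 9, and its highest was KO nicotine 4. The sum of 6 brown fat genes, all 6 with counts in every group, ran between 1106.4 and 2000.9 CPM in KO nicotine, 809 and 1690.4 CPM in KO air, 1009 and 1137 CPM in WT nicotine, and 353 and 1772 CPM in WT air. Mitochondrial genes took 4.38 to 7.25% of the counts in KO nicotine, 3.73 to 5.70% in KO air, 3.95 to 5.06% in WT nicotine and 3.004 to 7.52% in WT air. Both measures were highest in KO nicotine 4 and WT air 8 and lowest in WT air 9. The sum of 10 skeletal muscle genes was 211 CPM in KO nicotine 3 and 9.47 to 47.9 CPM in the other libraries, and 1 of the 10, Pvalb, had no count in WT air. Fits with a contractile or an adipocyte score as a covariate are given further on and do not settle a cause. What part the brown fat, mitochondrial and skeletal muscle signals have in the level of the members was not tested. In bulk tissue, fewer cells of a type and less RNA per cell cannot be told apart.

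**Figure D3:**
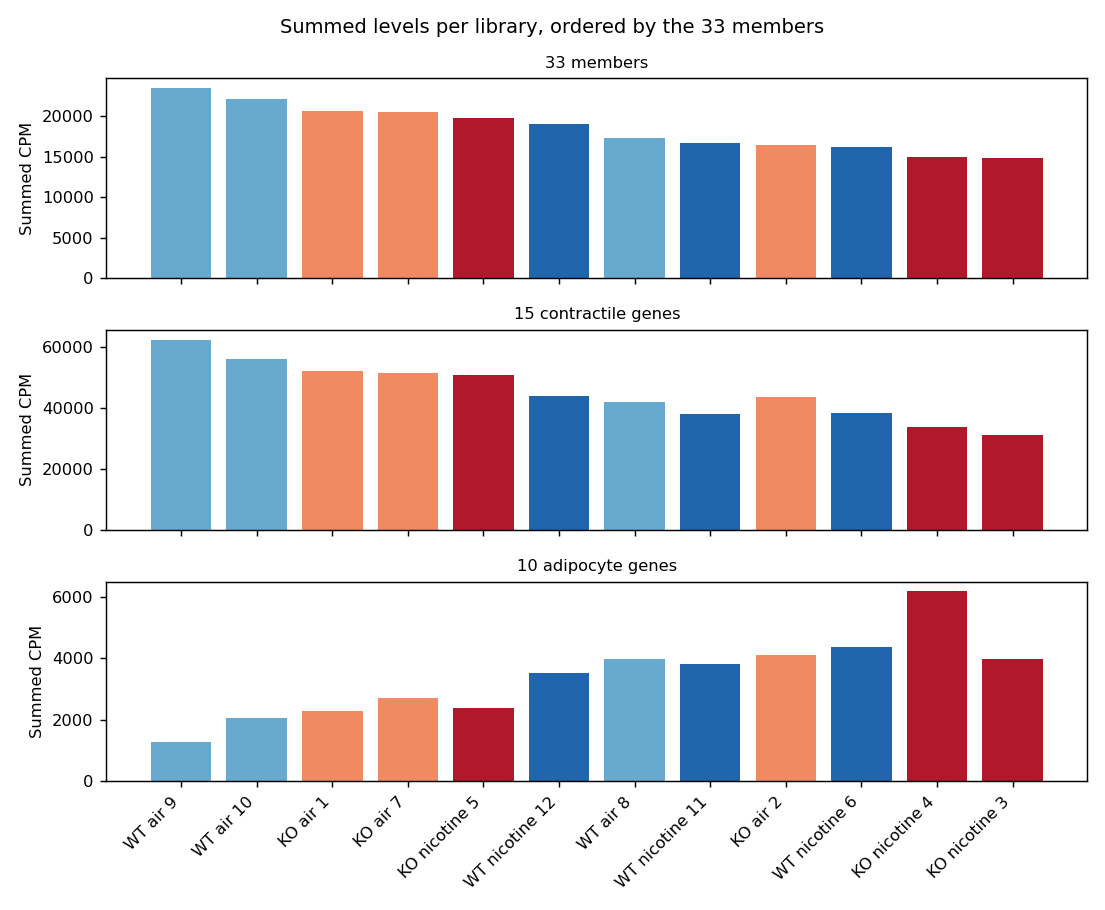
Summed CPM of the 33 members, of 15 contractile genes and of 10 adipocyte genes in each of the 12 libraries, ordered by the members' sum and coloured by group. The members' sum lies between 14850.7 CPM in KO nicotine 3 and 23504.1 CPM in WT air 9, with the contractile sum in nearly the same order and the adipocyte sum lowest in WT air 9.

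No member passed an adjusted p of 0.05 for nicotine against air in KO aortas by edgeR's quasi-likelihood test with Benjamini-Hochberg adjustment over all genes, and 0% of all genes did. The smallest adjusted p of a member was 0.878. At an unadjusted p under 0.05 there were 2 lower members and none higher, against 2.1% and 2.48% of all genes, and DESeq2 called 0 members with 2 at that unadjusted level, against 5.31% of all genes by DESeq2. Of the members, 26 were below 0, against 48.5% of all genes, with a median of -0.15, against 0.01 over all genes.

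In WT aortas, nicotine against air likewise gave 0 called members by edgeR, where 0.0205% of all genes were called, and the smallest adjusted p of a member was 0.360. At an unadjusted p under 0.05 there were 4 lower members and 1 higher, against 4.41% and 5.43% of all genes. DESeq2 also called 0 members, with 7 at an unadjusted p under 0.05, or 21.2%, against 10.4% of all genes by DESeq2. Of the 33 log2 fold changes, 24 were below 0, against 50.6% of all genes, and their median was -0.19, against -0.005 over all genes. The 3 genes called were higher in nicotine, and none is a member. The median standard error of a member was 0.179, and for 27 members the 95% interval lay within a 2-fold change in either direction. In both genotypes 22 members were below 0. Itga4, Itga6, Lasp1, Parvb and Tln2 made up the 5 that were above 0 in both. Averaged over the genotypes, 23 members were below 0, against 48.6% of all genes, and 6 of them had an unadjusted p under 0.05, against 5.33% of all genes. The smallest adjusted p was then 0.336, and 0% of all genes were called.

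**Figure D4:**
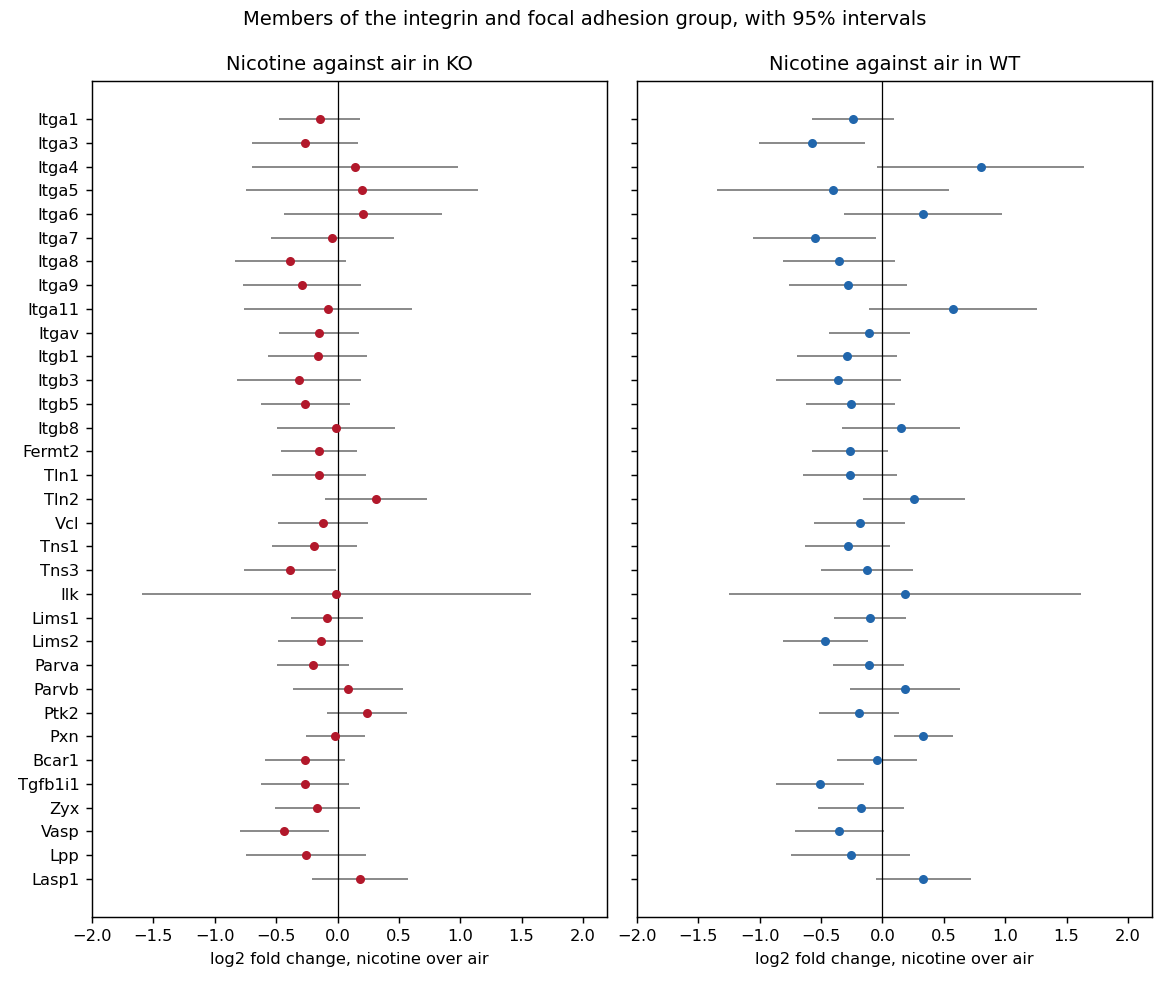
Log2 fold change of nicotine over air for each member, in KO (left panel) and in WT (right panel), with 95% intervals from the edgeR fit and the members ordered by role. Most points lie left of 0 in both panels (26 of 33 in KO and 24 of 33 in WT), and Ilk has the widest interval.

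Of the alpha subunits, 7 of 10 were below 0 in each genotype, and none was called. Itga3 was at 197, 163 and 234 CPM in KO nicotine, against 254, 186 and 274 CPM in KO air. In WT nicotine it was at 183, 153 and 205 CPM, against 198, 300.2 and 309 CPM in WT air. WT air 9 and 10 stood apart above, while WT air 8 lay within the WT nicotine range. Its log2 fold change was -0.27 ± 0.20 in KO and -0.58 ± 0.20 in WT, and -0.42 ± 0.14 averaged over genotypes, with an edgeR adjusted p of 0.356 for the average. The second laminin receptor chain, Itga7, had 153, 134 and 203 CPM in KO nicotine, against 168, 145 and 192 CPM in KO air. It had 149, 123 and 202 CPM in WT nicotine, against 163, 247 and 284 CPM in WT air. The Itga7 groups overlapped in both genotypes, with log2 fold changes of -0.04 ± 0.23 in KO and -0.55 ± 0.23 in WT.

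Itga8, the most abundant alpha chain, was at 2333, 2734 and 3513 CPM in KO nicotine, against 4020, 3083 and 4090 CPM in KO air. In WT nicotine it was at 2641, 2860 and 3565 CPM, against 3008, 4441 and 4138 CPM in WT air. The nicotine libraries lay mostly low in both genotypes, but KO nicotine 5 and WT nicotine 12 reached into the air ranges. The log2 fold change averaged over genotypes was -0.37 ± 0.15 (edgeR adjusted p = 0.405). Itga5, the fibronectin receptor chain, overlapped between exposures in both genotypes. Its values were 595, 226 and 339.8 CPM in KO nicotine, against 349.6, 289.6 and 372 CPM in KO air. It had 362, 296 and 701 CPM in WT nicotine, against 355, 618 and 823 CPM in WT air. KO nicotine 3 and WT nicotine 12 were far above the other libraries of their groups, and the 95% interval of the averaged log2 fold change ran from -0.77 to 0.56.

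A pair of scarce alpha chains had positive log2 fold changes in WT. Itga11 had 8.06, 13.2 and 18.1 CPM in KO nicotine, against 18.4, 10.8 and 12.6 CPM in KO air. It had 25.1, 14.9 and 14.2 CPM in WT nicotine, against 15.1, 9.80 and 11.4 CPM in WT air. WT nicotine 6 alone was high, and the groups overlapped. On the log2 scale Itga11 was at -0.08 ± 0.32 in KO and 0.58 ± 0.32 in WT. For Itga4, an integrin chain of leukocytes among other cells, the log2 fold change was 0.14 ± 0.38 in KO and 0.80 ± 0.38 in WT, the largest positive value of any member in that comparison. Its 3 WT nicotine libraries were at 43.9, 28.1 and 13.8 CPM, so that WT nicotine 12 lay below all 3 WT air libraries, which had 18.1, 14.5 and 16.5 CPM. The summed level of 10 macrophage genes was also highest in WT nicotine 6, at 477 CPM, and ran from 356 to 477 CPM in WT nicotine, against 205 to 222 CPM in WT air. In KO it ran from 261 to 382 CPM in nicotine, against 214 to 329 CPM in air. The sum of 10 fibroblast genes was also highest in WT nicotine 6, at 12431 CPM. It ran from 10461 to 12431 CPM in WT nicotine, against 8361.8 to 10411 CPM in WT air. In KO it ran from 7986.5 to 10167 CPM in nicotine, against 7857.3 to 10994 CPM in air. Summed T and B cell genes were at 36.1, 14.8 and 5.31 CPM in WT nicotine 6, 11 and 12. In WT air they ran from 11.3 to 25.3 CPM. The part of these markers in the Itga4 and Itga11 values was not tested.

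Of the beta subunits, all 4 were below 0 in KO and 3 of 4 in WT. Itgb5 had 403, 418 and 578 CPM in KO nicotine, against 594, 469.9 and 614 CPM in KO air. It had 513, 517 and 539 CPM in WT nicotine, against 533, 729 and 615 CPM in WT air. Both genotypes overlapped, and the averaged log2 fold change was -0.26 ± 0.12 (edgeR adjusted p = 0.452). Itgb1 was at -0.23 ± 0.13 averaged over genotypes, Itgb3 at -0.34 ± 0.17, and Itgb8 at 0.07 ± 0.16 (log2 fold changes).

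Among the genes of integrin activation and the talin and vinculin linkage, 5 of 6 were below 0 in each genotype. Tns3 had 77.9, 91.4 and 125 CPM in KO nicotine, against 134, 112 and 139.8 CPM in KO air. It had 102, 104 and 90.3 CPM in WT nicotine, against 87.3, 126 and 110.5 CPM in WT air. KO nicotine 5 kept the KO groups from separating, with a log2 fold change of -0.39 ± 0.17 in KO and -0.13 ± 0.17 in WT. The averaged log2 fold changes were -0.24 ± 0.11 for Tns1, -0.21 ± 0.13 for Tln1, -0.21 ± 0.10 for Fermt2 and -0.15 ± 0.12 for Vcl. Tln2, the less abundant talin, was on the other side, at 0.31 ± 0.19 in KO and 0.26 ± 0.19 in WT.

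Because Tln2 and Tln1 lay on opposite sides, the ratio of the 2 paralogs was also taken within each library, along with 3 other pairs, a comparison added after the values had been seen. Tln2 counts were 3.20 to 6.83% of Tln1 counts in KO nicotine, against 2.68 to 4.42% in KO air. They were 4.19 to 5.5% in WT nicotine, against 2.38 to 4.80% in WT air. The averaged log2 difference was 0.48, with p = 0.09 by an exact 2-sided permutation of libraries within genotypes, and 0.29 after adjustment over the 4 pairs. The smallest p that these 400 arrangements allow is 0.005. Parvb to Parva differed by 0.27 (permutation p = 0.24), Lims2 to Lims1 by -0.21 (permutation p = 0.145) and Tns3 to Tns1 by -0.03 (permutation p = 0.78). None of the 4 ratios was thus shown to differ between exposures beyond the spread of the libraries.

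In the ILK, PINCH and parvin complex, Lims2, the PINCH2 gene, had 122, 120.1 and 135 CPM in KO nicotine, against 129.8, 130.4 and 155 CPM in KO air. It had 109, 94.2 and 148 CPM in WT nicotine, against 135, 179 and 170.3 CPM in WT air. WT nicotine 12 lay above WT air 8, so the WT groups overlapped. Lims2 had a log2 fold change of -0.14 ± 0.16 in KO and -0.46 ± 0.16 in WT, with an edgeR adjusted p of 0.404 in WT. Its partner Lims1 had 70.4, 79.9 and 98.1 CPM in KO nicotine, against 95.6, 77.3 and 91.1 CPM in KO air. It had 101, 81.8 and 95.96 CPM in WT nicotine, against 95.99, 96.9 and 106 CPM in WT air. Lims1 overlapped between exposures in both genotypes and was at -0.09 ± 0.10 averaged over them. Parva was at -0.16 ± 0.10 and Parvb at 0.13 ± 0.15 (averaged log2 fold changes).

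The signalling adaptors held the member with the smallest p in WT. Tgfb1i1, whose product Hic-5 shuttles between adhesions and the nucleus, had 139, 126 and 178 CPM in KO nicotine, against 176, 162 and 194 CPM in KO air. It had 135, 147 and 144 CPM in WT nicotine, against 151, 238 and 218 CPM in WT air. The WT groups did not overlap, although WT air 8 was only just above WT nicotine 11, and the KO groups did. The log2 fold change was -0.27 ± 0.17 in KO and -0.51 ± 0.17 in WT, with an unadjusted p of 0.00911 and an adjusted p of 0.36 in WT by edgeR.

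In WT the value of paxillin had the opposite sign to that of its relative Hic-5. Pxn had 68.2, 65.6 and 54.3 CPM in KO nicotine, against 66.1, 58.5 and 65.9 CPM in KO air. It had 75.8, 70.6 and 76.9 CPM in WT nicotine, against 62.6, 55.3 and 59.6 CPM in WT air. All 3 WT nicotine libraries were above all 3 WT air libraries, whereas the KO groups overlapped. Paxillin had a log2 fold change of -0.02 ± 0.11 in KO and 0.33 ± 0.11 in WT, with an edgeR adjusted p of 0.37 in WT. Tgfb1i1, Vasp and Pxn were the 3 members without overlap in WT, where 13.2% of all genes had none, and no member was without overlap in KO, where 10.7% of all genes had none. Ptk2, the kinase that binds paxillin, had 122, 76.95 and 86.6 CPM in KO nicotine, against 82.4, 80.4 and 78.4 CPM in KO air. It had 69.7, 76.9 and 88.04 CPM in WT nicotine, against 84.3, 95.2 and 88.2 CPM in WT air. KO nicotine 3 was the highest Ptk2 library of the 12, and the log2 fold change was 0.24 ± 0.15 in KO and -0.19 ± 0.15 in WT. Bcar1 was at -0.26 ± 0.15 in KO and -0.04 ± 0.15 in WT.

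Of the actin regulators, Vasp had the smallest p in KO and over both genotypes. It had 94.99, 95.6 and 134 CPM in KO nicotine, against 151, 120 and 168 CPM in KO air. It had 134, 109 and 138 CPM in WT nicotine, against 138, 172 and 175 CPM in WT air. In WT the highest nicotine library was just under the lowest air library, and in KO only KO nicotine 5 reached into the air range. The log2 fold change was -0.43 ± 0.17 in KO, -0.35 ± 0.17 in WT and -0.39 ± 0.12 averaged, with an unadjusted p of 0.00556 and an adjusted p of 0.336 for the average by edgeR. Its binding partner Zyx had 465, 404 and 584 CPM in KO nicotine, against 589, 484 and 556 CPM in KO air. It had 549.6, 583 and 631 CPM in WT nicotine, against 559, 769 and 662 CPM in WT air. Zyx overlapped between exposures in both genotypes and was at -0.17 ± 0.11 averaged over them. Lpp was at -0.26 ± 0.16, and Lasp1 at 0.26 ± 0.13, on the positive side (averaged log2 fold changes).

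**Figure D5:**
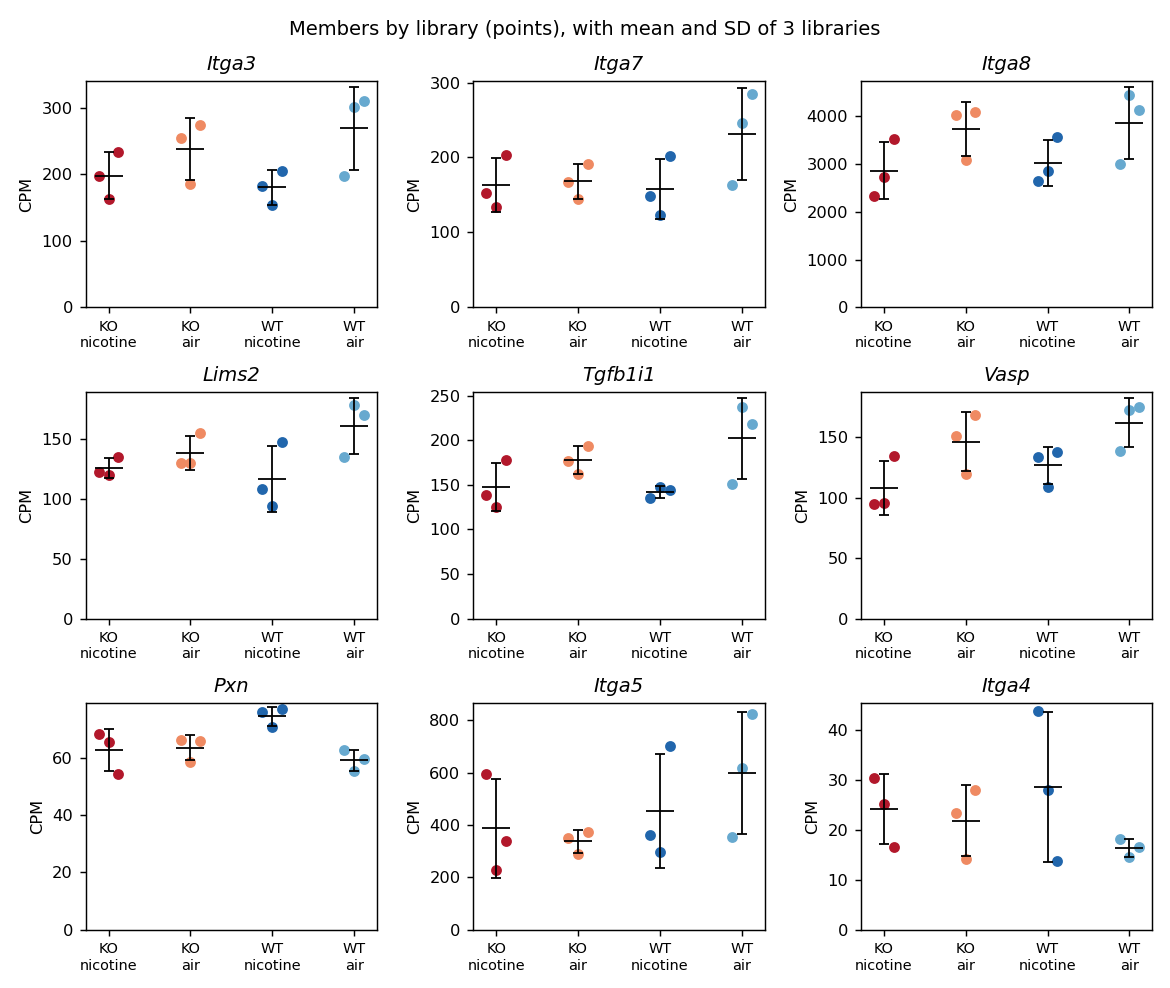
CPM of 9 members in the 12 libraries, in groups KO nicotine, KO air, WT nicotine and WT air, with points for libraries and bars for the mean and SD of 3. Pxn in WT nicotine lies above WT air without overlap, Tgfb1i1 and Vasp in WT nicotine lie just below WT air 8, and Itga5 and Itga4 are spread widely within groups.

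The position of single libraries recurred from member to member. Of the 26 members below 0 in KO, KO nicotine 5 was the highest of the 3 nicotine libraries in 23, and KO air 2 was the lowest of the 3 air libraries in 24. Of the 24 members below 0 in WT, WT nicotine 12 was the highest of the 3 nicotine libraries in 18, and WT air 8 was the lowest of the 3 air libraries in 24. These same libraries stood at the corresponding ends of their groups in the contractile sum, at 50740 CPM in KO nicotine 5, 43667 CPM in KO air 2, 43820 CPM in WT nicotine 12 and 41859 CPM in WT air 8. Without WT air 8, 13 members, or 39.4%, had an unadjusted p under 0.05 in WT, against 16.2% of all genes in the same fit. The smallest adjusted p of a member was then 0.0862, and 0 were called by edgeR. Without KO nicotine 5, 22 members, or 66.7%, were past that level for the average of both genotypes, against 16.1% of all genes in the same fit, with a smallest adjusted p of 0.0749 and 0 calls. Without WT air 8 that average had 16 such members, or 48.5%, against 18.1% of all genes, with a smallest adjusted p of 0.0719 and 0 calls. Without WT air 9 it had 3, or 9.09%, against 6.62% of all genes. With any library other than WT air 8 or KO nicotine 5 left out, 9.09 to 30.3% of members were past that level for the average. All genes then had 6.62 to 11.4%. WT air 8 and KO nicotine 5 were singled out by the members' own values. Leaving them out widens the exposure difference by selection, so the larger shares are no separate support for it.

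Of the contractile genes themselves, 14 of 15 had a log2 fold change below 0 with nicotine in each genotype, with a median log2 fold change of -0.35 in KO and -0.46 in WT, and 0 of 15 were called. Of the adipocyte genes, 10 of 10 were above 0 in KO and 9 of 10 in WT, with 0 called. With the contractile score of each library as a covariate, added after the data had been seen, 12 of 33 members were below 0 in each genotype, with medians of 0.02 in KO and 0.06 in WT, and 0 had an unadjusted p under 0.05, against 3.58% of all genes in KO and 5.94% in WT in the same fit. The averaged log2 fold change became -0.11 for Vasp, -0.08 for Tgfb1i1, -0.06 for Itga3 and -0.004 for Itga8. With the adipocyte score as a covariate, 25 members were below 0 in KO and 13 in WT, with medians of -0.06 in KO and 0.05 in WT. In that fit 1 member in KO had an unadjusted p under 0.05, against 4.53% of all genes. In WT 0 members had, against 7.17% of all genes. Pxn in WT was at 0.25 with the adipocyte score and at 0.23 with the contractile score. Both scores were measured in the same libraries, and their genes themselves shifted with exposure. A fit with either score therefore also takes out any nicotine difference that the members share with it. The cause of the smaller values was not tested.

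For KO against WT in air, 0 members were called by edgeR, where 0% of all genes were, and 0 had an unadjusted p under 0.05, where 4.36% of all genes had. DESeq2 had 1 at that unadjusted level, against 4.96% of all genes. Of the members, 25 were below 0, against 49.8% of all genes, with a median of -0.14, against 0.001 over all genes. Lims1 and Ptk2, both lower in KO air, were the 2 members without overlap, against 6.06% of all genes without overlap and lower. Their log2 fold changes were -0.18 ± 0.14 and -0.15 ± 0.15. The Lims1 groups nearly met, with KO air 1 just under WT air 8. Itga5 had the lowest value of a well-counted member, -0.83 ± 0.43, and the log2 fold change of Itga7 was -0.46 ± 0.23, of Zyx -0.29 ± 0.16 and of Lims2 -0.22 ± 0.16. Tns3 was at 0.25 ± 0.17. Their edgeR adjusted p was 0.995 in each case.

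For KO against WT in nicotine, 0 members were called by edgeR, where 0.00684% of all genes were. Pxn was the only member with an unadjusted p under 0.05, against 8.34% of all genes, at -0.25 ± 0.11 with an edgeR adjusted p of 0.572. It was also the only member without overlap, against 5.59% of all genes without overlap and lower. DESeq2 likewise had 1 member at an unadjusted p under 0.05, against 8.97% of all genes. Of the members, 25 were below 0, against 47.7% of all genes, with a median of -0.08. Log2 fold changes of 0.28 ± 0.15 for Ptk2, -0.28 ± 0.16 for Zyx, -0.45 ± 0.32 for Itga11 and -0.23 ± 0.17 for Vasp were not past the threshold. Ilk was at -1.06 ± 0.71, on 0.550, 0.477 and 0.162 CPM in KO nicotine, against 0.394, 1.01 and 1.06 CPM in WT nicotine. In air it had 0.680, 0.171 and 0.330 CPM in KO, against 1.13, 0.577 and 0.484 CPM in WT. KO and WT overlapped in both exposures. With 2 to 13 counts per library, the Ilk difference did not pass the threshold (edgeR adjusted p = 0.766).

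Averaged over exposures, KO against WT again gave 0 called members by edgeR, where 0% of all genes were called. Zyx was the only member with an unadjusted p under 0.05, against 8.41% of all genes, at -0.28 ± 0.11 with an edgeR adjusted p of 0.542. The highest Zyx value of the KO libraries was 589 CPM, in KO air 1, inside the WT range of 549.6 to 769 CPM. DESeq2 had 2 members at an unadjusted p under 0.05, against 8.99% of all genes. Of the members, 28 were below 0, against 48% of all genes, with a median of -0.07. For Ilk the log2 fold change was -0.97 ± 0.50, for Lims1 -0.17 ± 0.10, for Itga5 -0.53 ± 0.30, for Vasp -0.19 ± 0.12 and for Itgb5 -0.16 ± 0.12. For 29 members the 95% interval lay within a 1.5-fold change in either direction.

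Whether nicotine acted differently in the genotypes was tested as the interaction, the log2 fold change in KO minus that in WT. By edgeR 0 members were called, where 0% of all genes were, and the smallest adjusted p was 0.999. Pxn alone had an unadjusted p under 0.05, against 4.43% of all genes, at -0.35 ± 0.16, and DESeq2 also had 1 member at that level, against 4.84% of all genes. The values of Ptk2 (0.43 ± 0.21), Itga7 (0.51 ± 0.33), Lims2 (0.33 ± 0.23), Itga11 (-0.65 ± 0.45) and Itga4 (-0.66 ± 0.54) were of the size of their errors or up to about 2 times it. The members were split, with 16 below 0 and 17 above, against 47.1% of all genes below 0, and a median of 0.005. The median standard error was 0.253 here, and for 8 members the 95% interval lay within a 1.5-fold difference. For all other members the interval reached past 1.5-fold, so a difference of that size between the genotypes was not excluded at this spread.

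The authors' deposited table of nicotine against air listed all 33 members for each genotype and had 0 with an adjusted p under 0.05 in KO and 0 in WT, among 7 called genes of 17195 in KO and 123 of 15212 in WT. In the authors' deposited table for WT, Itga3 had the smallest p of the members, with a log2 fold change of -0.57 and an adjusted p of 0.277. The largest gap between the authors' deposited log2 fold changes and those fitted here was 0.006.

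Other genes of the pathway, taken from 5 further lists, had 0 called by edgeR in each list and comparison. For each list, the share given is from the comparison where it departs most from that of all genes. A departure in these shares therefore follows from the selection and is not a test of the list. Among 34 tested adaptors and actin linkers outside the set, 7 were lower at an unadjusted p under 0.05 with nicotine averaged over genotypes and none higher, or 20.6%, against 10.9% of all genes. Examples were Csrp1, a LIM protein of smooth muscle, at -0.46 ± 0.13, Kank2, which binds talin, at -0.34 ± 0.12, and Pdlim7, a PDZ and LIM protein, at -0.40 ± 0.14. Among 23 targets of serum response factor and its cofactors, 9 were lower and 1 higher in the same comparison, or 43.5%, and 7 of the 23 are also contractile markers. Cnn2 (calponin 2) was at -0.47 ± 0.12 and Tpm2 (beta-tropomyosin) at -0.46 ± 0.14, while Ctgf, a secreted matricellular protein, was at 0.57 ± 0.18.

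Among 28 integrin ligands, 7 were lower and 2 higher at an unadjusted p under 0.05 for KO against WT in nicotine, or 32.1%, against 8.34% of all genes. Ctgf had 1938 CPM in KO nicotine, against 3655 CPM in WT nicotine, a log2 fold change of -0.92 ± 0.25 (edgeR adjusted p = 0.413). Thbs1 (thrombospondin 1) was at -1.03 ± 0.29, and Icam1, a ligand of leukocyte integrins, at -0.62 ± 0.21. The summed immediate early genes ran from 1333 to 2910 CPM in KO nicotine, against 2028 to 4126 CPM in WT nicotine, and their part in these values was not tested. Among 37 signalling genes, 6 were higher and 1 lower with nicotine in WT, or 18.9%, against 9.84%, with Tiam1, an activator of Rac, at 0.45 ± 0.13, Ptpn12, a phosphatase of p130Cas and paxillin, at 0.40 ± 0.13, and Rap1b, a GTPase of integrin activation, at 0.30 ± 0.11. Nedd9, a relative of Bcar1 that was singled out after its values had been seen, was at -0.61 ± 0.10 for KO against WT averaged over exposures, with an edgeR adjusted p of 0.115. Among 12 other integrin subunit and integrin-like genes, 2 were higher at an unadjusted p under 0.05 in that comparison and none lower. That is 16.7%, against 8.41%. These were Itgae, the alpha E chain of lymphocytes, at 1.08 ± 0.34 and Itgb4, the beta chain of hemidesmosomes, at 0.32 ± 0.13. Itgbl1, an integrin beta-like gene, was at -0.19 ± 0.12.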

How the data were processed

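RNA of mouse thoracic aorta (12 libraries, 3 in each of 4 groups) was prepared with the RNeasy Plus mini kit and SMART-Seq v4, per the labels' protocols. The authors deposited raw counts per gene symbol, made with HTSeq on build mm9, per the submitters' processing notes. Not given in the sources used here were the aligner, the gene annotation, the strand setting and program versions. The deposited tables of nicotine against air hold, per the file headers, a mean signal per gene, a log2 fold change with its standard error, a test score and a p-value with its adjusted form.

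Counts of 14621 genes kept by filterByExpr were scaled by TMM (factors 0.962 to 1.05) and fitted with edgeR 4.0.16 (robust quasi-likelihood, 4 group means, 8 residual degrees of freedom, biological coefficient of variation 0.233). An adjusted p (Benjamini-Hochberg, all genes) under 0.05 counted as called. The ± after a log2 fold change is its standard error, the size of the change divided by the root of F. Exon lengths come from GENCODE M21 on GRCm38, not mm9. The members, lists and tests were chosen with earlier results of these data known. Per comparison, the 6 members with the smallest p are named where none was called, and members named in at least 2 comparisons have every library's value. From each other list, up to 3 genes are named in the comparison where its share past an unadjusted p of 0.05 departs most from that of all genes. The fit was tested on simulated counts drawn gene by gene, without shifts shared by the genes of a library. The simulation therefore does not check the fit for such shifts.

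Pairs of libraries within a group had a chi-square per degree of freedom of 8.28 to 68.6 and so differed beyond counting noise. No batch is named in the labels, and 0 columns of values were left unused. Alternatives were DESeq2 1.42.0, limma 3.58.1 voom, DESeq2 size factors, no filter, only the compared groups, an adipocyte or contractile covariate (prior count 2), and each library left out. The computations ran in R 4.3.3 and in Python 3.11.15 (numpy 2.4.6, pandas 2.3.3, figures in matplotlib 3.10.9).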

Additional observations from a re-analysis of the deposited data

How the results depend on the processing

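No member was called in any of the 7 comparisons under any alternative run, and of 635 recomputed log2 fold changes of named members 634 kept their direction and their side of the threshold. Itgb5, averaged over genotypes, turned to 0.033 with the contractile covariate. Counts over all genes moved more. With DESeq2, 115 genes were called for nicotine in WT, 13 for KO against WT in air, 87 for KO against WT in nicotine, 9 for the interaction, 96 for nicotine averaged over genotypes and 115 for KO against WT averaged over exposures. With DESeq2 size factors, 7 were called for nicotine in WT and 6 for KO against WT in nicotine. Without a filter on low counts, the counts were 21 for nicotine in WT, 7 for KO against WT in nicotine, 1 for the interaction, 6 for nicotine averaged and 12 for KO against WT averaged. Limma voom gave 5 for KO against WT in nicotine. The adipocyte covariate gave 0 for nicotine in WT, 8 for KO against WT in nicotine and 6 for KO against WT averaged. The contractile covariate gave 0 for nicotine in WT and 5 for KO against WT in nicotine. With only the 2 groups compared, 0 were called for nicotine in WT and 2 for KO against WT in air. The causes of these shifts were not tested. Leaving out 1 library gave 0 to 34 called genes for nicotine in WT, 0 to 4 for KO against WT in nicotine, 0 to 1 for the interaction, 0 to 38 for nicotine averaged and 0 to 1 for KO against WT averaged. Of these, 34 and 38 came without WT air 8, 14 for nicotine in WT and 4 for KO against WT in nicotine without WT nicotine 12. Leaving out 1 library gave 2 to 13 members at an unadjusted p under 0.05 for nicotine in WT, against 5.43 to 16.2% of all genes, and 3 to 22 for the average, against 6.62 to 18.1% of all genes. The Tns3 to Tns1 log2 difference ran from -0.091 to 0.025 when 1 library was left out, and was above 0 at 0.025 without WT nicotine 12 and at 0.019 without KO nicotine 3. No paired analysis was possible because the labels give no pairing of libraries. With 3 libraries a group, the depth of each library limits the members little, apart from Ilk, and the spread between libraries sets the error.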
